A study of Mus musculus with 15 samples.

Results

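The promoters of ubiquitin and proteasome genes were taken from a promoter-capture Hi-C table of the mouse hippocampus, a table of which HindIII restriction fragments were ligated to which captured promoter. A promoter was a member if its gene name began with Ube2, Ube3, Fbxo, Fbxl or Fbxw, with Usp, Rnf, Trim or Cul followed by a digit, or with a proteasome subunit name from Psma to Psmg followed by a digit. This rule found 95 of the 4429 promoters and 858 of the 36353 listings, a listing being 1 promoter with 1 fragment. By family these were 13 proteasome subunits (Psm), 10 ubiquitin-conjugating enzymes (Ube2), 21 Rnf, 17 Trim, 2 Cul, 3 Fbxl, 3 Fbxo, 4 Fbxw and 22 ubiquitin-specific proteases (Usp), and no Ube3 promoter was among them. The rule goes by name and not by contact, and all 95 names matched a RefSeq symbol.

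The 15 libraries fall into Basal (3), Early (4), Late (4) and Reactivated (4) by their titles. All came from neuronal nuclei sorted with NeuN and GFP antibodies from hippocampi of ArcCreERT2 x R26R-STOP-floxed-eYFP mice with the genotype label +/+, in which the Arc promoter drives a tamoxifen-dependent Cre that switches on eYFP. Mice were kept in the dark before contextual fear conditioning and received 4-hydroxytamoxifen 1 h before it. Those not collected soon after the task spent another 48 h in the dark, and each condition's 10000 nuclei came from a pool of 10 to 12 mice. The protocol has brains collected either 1.5 to 2 h after conditioning or on day 5, the later cohort with or without return to the fear-inducing tone and context. The labels do not tie the group names to these intervals, do not say what Basal mice underwent, and do not state which group, if any, held eYFP-negative nuclei. Age is not given. The treatment labels were set aside, since they number collection days along the sample order and deny recall throughout, against what the protocol describes.

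Ubiquitin is attached to proteins in a relay of activating enzyme, conjugating enzyme and ligase. The ligase chooses the target. Most Rnf and Trim proteins, though not all, carry a RING domain that binds the conjugating enzyme. Cullins are scaffolds that hold exchangeable adaptors, among them the F-box proteins Fbxl, Fbxo and Fbxw. Ubiquitin-specific proteases take ubiquitin off again, and the proteasome, a barrel of alpha and beta subunits capped by a regulatory particle, degrades the marked protein. In the hippocampus protein degradation by the proteasome has long been studied as a partner of protein synthesis in synaptic plasticity and in memory consolidation and reconsolidation.

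The members with the fragments most often scored across the libraries included Trim28, Cul3 and Psmd11, and their promoter windows are shown here because the recurrent contacts described next belong to them. The windows are RefSeq sequences of GRCm38.p6 from 250 bases before to 50 bases after the gene start, written 5′ to 3′ on the gene's strand, with matches to the SP1 motif GGGCGGG or the ETS motif CCGGAAG on either strand in capitals. Trim28 lies at chr7:13023902-13024201 on the plus strand, Cul3 at chr1:80340641-80340940 on the minus strand and Psmd11 at chr11:80428365-80428664 on the plus strand.
Trim28: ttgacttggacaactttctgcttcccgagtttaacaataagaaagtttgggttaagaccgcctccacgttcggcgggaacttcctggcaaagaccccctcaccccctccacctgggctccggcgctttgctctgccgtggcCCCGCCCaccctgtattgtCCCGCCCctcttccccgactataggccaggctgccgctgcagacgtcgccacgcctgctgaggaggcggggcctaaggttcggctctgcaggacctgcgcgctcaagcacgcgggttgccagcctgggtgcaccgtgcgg
Cul3: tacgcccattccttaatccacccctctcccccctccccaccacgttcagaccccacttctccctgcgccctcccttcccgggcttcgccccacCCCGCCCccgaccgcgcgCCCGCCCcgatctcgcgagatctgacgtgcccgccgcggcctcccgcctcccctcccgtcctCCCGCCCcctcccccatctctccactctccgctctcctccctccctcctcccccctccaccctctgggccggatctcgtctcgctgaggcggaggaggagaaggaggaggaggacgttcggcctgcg
Psmd11: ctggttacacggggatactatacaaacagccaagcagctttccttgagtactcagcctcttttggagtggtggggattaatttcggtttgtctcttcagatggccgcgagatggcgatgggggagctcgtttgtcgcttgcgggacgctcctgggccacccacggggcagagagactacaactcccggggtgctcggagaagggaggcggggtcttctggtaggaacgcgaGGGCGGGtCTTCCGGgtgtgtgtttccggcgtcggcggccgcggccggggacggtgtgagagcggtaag
Trim28 holds 2 SP1 matches, Cul3 holds 3, and Psmd11 holds 1 SP1 and 1 ETS match. Windows were found for 75 of the 95 members, 92 windows in all. An SP1 match stood in 46.7% of them, against 44.6% of the windows of other captured promoters and 25.6% of all mouse windows in the RefSeq table. ETS matches stood in 17.4% of member windows, against 12.2% and 8.86%. The TGACGTCA motif of cyclic-AMP response elements stood in 3 member windows (3.26%), against 2.86% and 1.79%. The fragment positions given below are on mm9, another build, and were not converted. How far a fragment lies from its own promoter is therefore not given, and a recurrent fragment may lie close to it.

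Member promoters had a median of 8 listed fragments (quartiles 5 and 12), against 6 (quartiles 3 and 11) for the 4334 other promoters. The means were 9.03 ± 5.83 for members and 8.19 ± 7.04 for other promoters (SD over promoters). The widest contact list among members was that of Ube2d3, a broadly acting conjugating enzyme, with 30 fragments. Rnf139, a ligase of the endoplasmic reticulum membrane, had 25, and Ube2j1, the conjugating enzyme of degradation at that membrane, had 24. Cul3, Rnf20 and Rnf146 had 20 each. At the other end, 6 members had 1 fragment each, among them the proteasome alpha subunit Psma4, Trim68 and Ube2z. The median was 6 in the Trim family and 7 in the proteasome family, 8.5 for the proteases, 9.5 for the conjugating enzymes, 10 for Rnf and 13.5 for the 4 Fbxw promoters.

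**Figure D1:**
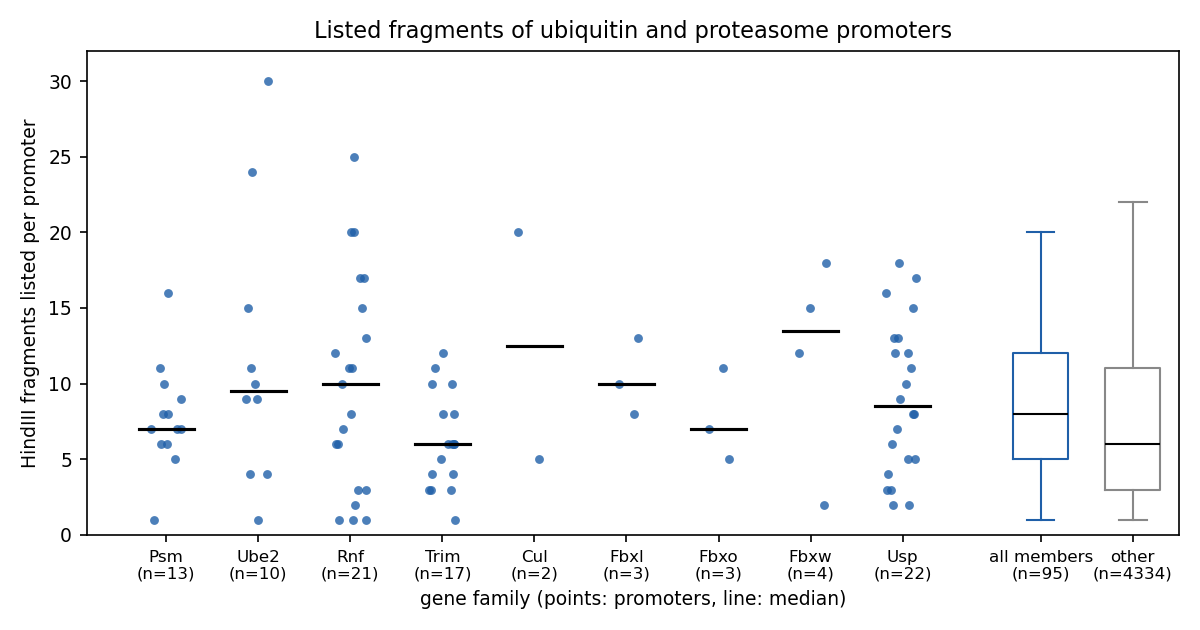
Number of HindIII fragments listed for each member promoter, by gene family (points are promoters, lines are family medians), with boxes for all 95 members and the 4334 other promoters (median, quartiles, whiskers at the 5th and 95th percentile). The member median of 8 lies above the median of 6 of other promoters, and Ube2d3 stands at 30.

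Each listing carries the authors' interaction score in each library, a whole number of 2 or more, or no score. Member scores ran from 2 to 5191. Most contacts were seen in few libraries: 32.6% of member listings were scored in 1 library only, and 32.7% of other listings were. Libraries of the same group were not equally independent. In 6 pairs of libraries, 48.3% to 100% of the fragments of the smaller library recur in the other, and for the members Basal 1 and 2 shared 93.1% of the fragments of the smaller library, Early 3 and 4 shared 80.2%, Late 1 and 2 shared 56.5%, Late 3 and 4 shared 97.1%, and Reactivated 3 and 4 shared 95.4%. Reactivated 1 and 2 held 2 and 7 member listings, of 35 and 388 in all, and shared both of those in the smaller. Counting each such pair as 1 gives 9 library sets: Early has 3 and each other group 2. No label says whether paired libraries came from separate pools, so p-values measure only the spread between these libraries, which may be technical. Over these sets, 35.7% of member listings (306 of 858) recurred in 2 or more, against 34.4% of other listings. In 5 or more sets were 11 member listings (1.28%), against 1.23% of other listings.

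The most recurrent member fragment belonged to Trim28, a corepressor that binds zinc finger proteins and carries ligase activity. It lies at chr7:13612837-13615593 (mm9) and was scored in 14 of 15 libraries and all 9 sets. Its scores were 0, 1321 and 156 in Basal 1 to 3, where 0 stands for no score, 681, 2030, 1459 and 820 in Early 1 to 4, 1326, 1724, 3110 and 2287 in Late 1 to 4, and 451, 1369, 2799 and 3491 in Reactivated 1 to 4. Only Basal 1 lacked it, and the other 3 groups overlap in score. Among its library's scores this contact ranked high, at a median percentile of 99.5. It is 1 of the 2 member listings scored in Reactivated 1. A second Trim28 fragment, chr7:27974815-27986990, was scored in Basal alone, at 663, 483 and 12, so Trim28 held both a contact seen in every group and one confined to Basal in these libraries.

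Ube2l6, the conjugating enzyme for the interferon-induced modifier ISG15, had the next most recurrent fragment, chr2:84717973-84722413, scored in 13 libraries and 8 sets. Scores were 884, 514 and 59 in Basal, 752, 985, 876 and 547 in Early, 2217, 2574, 2635 and 1598 in Late, and 0, 0, 440 and 480 in Reactivated. All 4 Late scores exceeded every score of the other groups, but the 4 Late libraries form only 2 library sets. In the limma fit of single listings described below, 0 of all 36353 listings passed in any comparison. How many of all listings separate in this way was not counted. This fragment was listed also with Rtn4rl2, Smtnl1 and Tnks1bp1 with the same scores, so the values cannot be assigned to Ube2l6 alone. For Psmd11, a subunit of the lid of the regulatory particle, the fragment at chr11:80244321-80245864 was scored in 11 libraries and 7 sets, at 1906, 1110 and 19 in Basal, 647, 699, 183 and 106 in Early, 0, 0, 503 and 356 in Late, and 0, 0, 4557 and 4948 in Reactivated. Reactivated 3 and 4, the libraries with the most listings, gave its highest scores, while Late 1 and 2 and Reactivated 1 and 2 gave none. Cul3, the scaffold whose adaptors carry BTB domains, had a fragment at chr1:80338591-80344978 that scored 1067, 547 and 0 in Basal, 0, 417, 291 and 135 in Early, 0, 0, 1105 and 723 in Late, and 0, 0, 2253 and 229 in Reactivated. It was scored in 9 libraries of all 4 groups.

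**Figure D2:**
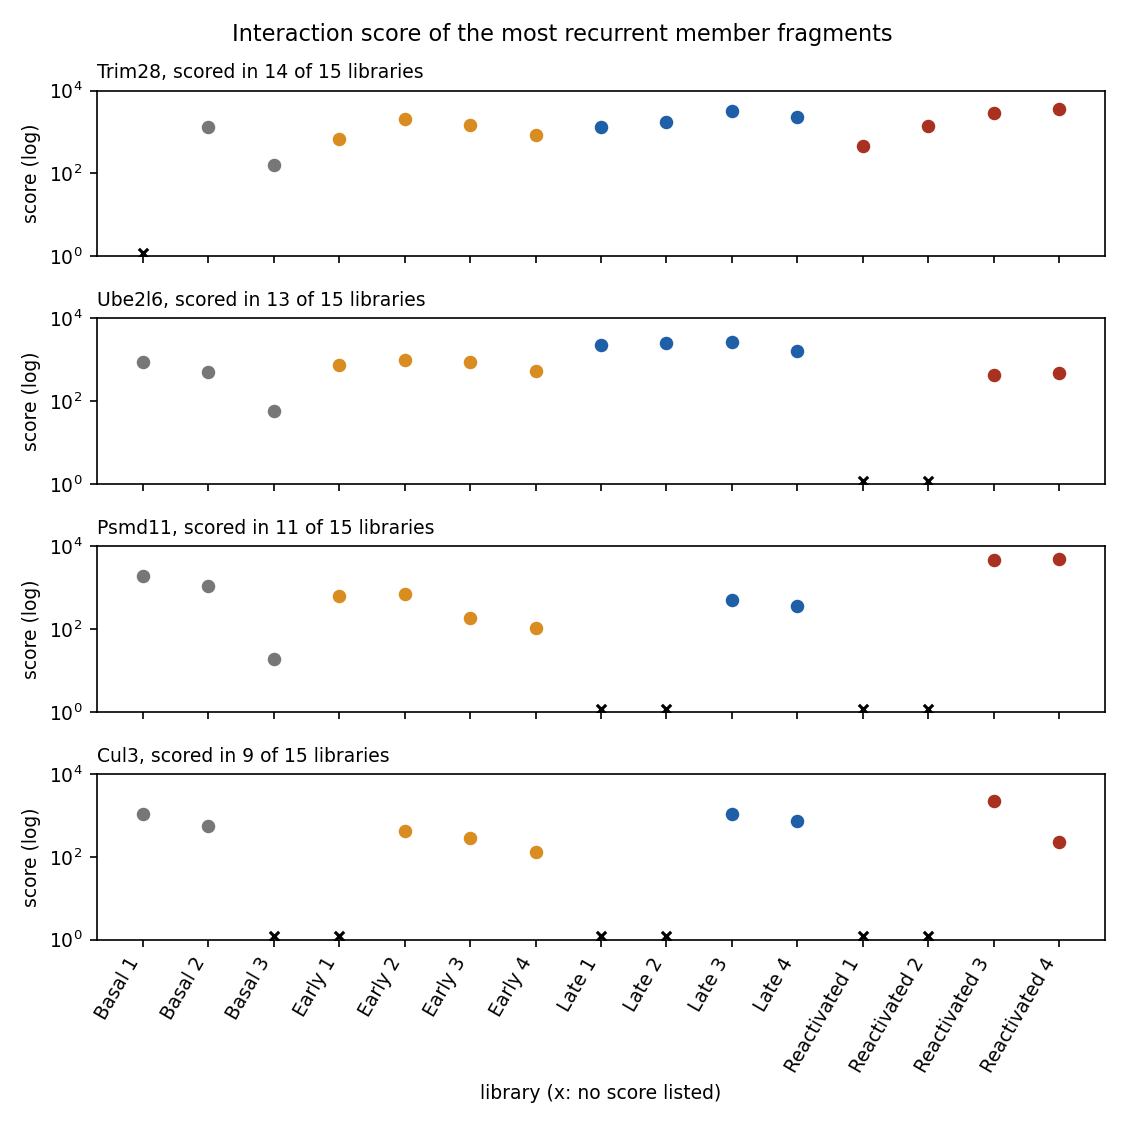
Interaction score (log axis) of 1 recurrent fragment each of Trim28, Ube2l6, Psmd11 and Cul3 in the 15 libraries, where a cross marks a library with no score. Trim28 lacks a score in Basal 1 only, and the crosses of the other 3 fragments fall in Reactivated 1 and 2, for Psmd11 and Cul3 also in Late 1 and 2, and for Cul3 also in Basal 3 and Early 1.

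Further fragments in 5 or more sets belonged to Rnf32 (8 libraries), Rnf145, an endoplasmic reticulum ligase (8 libraries), Ube2s, which extends ubiquitin chains for the anaphase-promoting complex (8 libraries), Rnf39, Trim66 (7 libraries each) and Cul9, a cullin that binds the tumour suppressor p53, which had 2 of them (8 libraries each). The Cul9, Rnf39, Trim66 and Ube2s fragments were listed with other promoters as well. The Rnf145 fragment, chr11:44330308-44331769, had no score in the 3 Basal libraries, 629, 0, 138 and 72 in Early, 0, 0, 855 and 562 in Late, and 0, 245, 445 and 414 in Reactivated. The Reactivated against Basal difference was 4.93 ± 2.83 (SE) in asinh(score), a scale that acts like a logarithm above 0, with an adjusted p of 0.315 by limma.

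An interaction was called in a library at a score of 5 or more. Called in Basal, Early, Late and Reactivated were 261, 326, 354 and 269 member listings, or 2.75, 3.43, 3.73 and 2.83 per member promoter. Other promoters had 2.21, 3.27, 3.00 and 2.77 in the same order. Late held the most called contacts per member promoter, and Early the most per other promoter. The groups differ in the number of libraries and in listings per library, so these totals were not tested. Of 836 called member listings, 553 (66.1%) were called in 1 group only, against 68.0% for other promoters, and 13 (1.56%) were called in all 4 groups, against 1.46%. By promoter, 62 of 95 members (65.3%) had a call in each of the 4 groups, against 54.2% of other promoters, whose contact lists were shorter. Rnf130 was the member with no call, its only score being 4.

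Within a group, few contacts were called in more than 1 library set. Among member fragments this held for 20 of 261 (7.66%) in Basal, 23 of 326 (7.06%) in Early, 13 of 354 (3.67%) in Late and 2 of 269 (0.743%) in Reactivated. Other promoters gave 8.55%, 8.53%, 3.26% and 0.383%. The low share in Reactivated stands beside the 2 and 7 member listings of Reactivated 1 and 2.

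**Figure D3:**
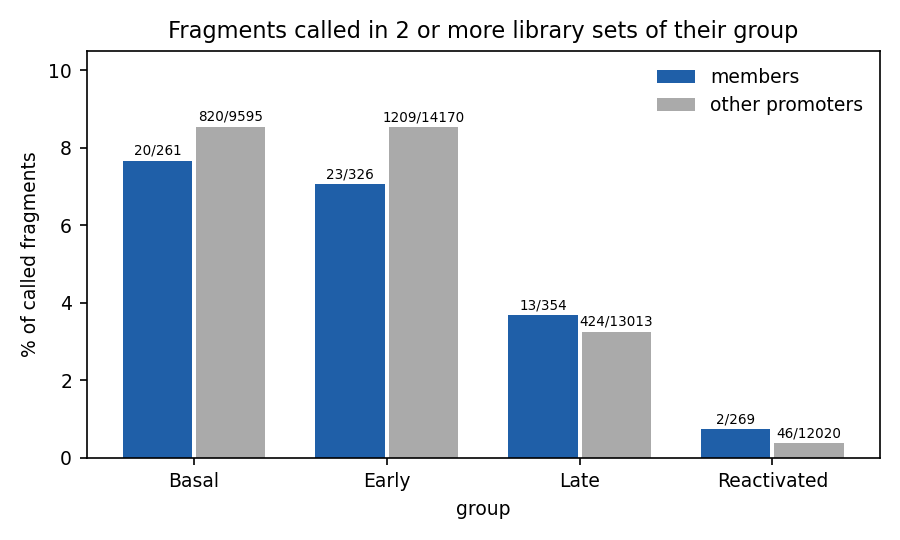
Percent of fragments called in a group that were called in 2 or more of its library sets, for members and for other promoters, with the numbers of fragments above the bars. Members stand at 7.66% in Basal and 0.743% in Reactivated, and other promoters follow the same order of groups except that Basal and Early nearly coincide.

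The fragments of a promoter mostly lay together. Bait positions were not used here, so each fragment's distance was taken to the median of its promoter's other fragments, and 207 of 852 member listings with such a distance (24.3%) lay more than 1000 kb away, against 24.6% for other promoters. The share was 40.4% among member listings scored in 1 library, 18.8% in 2 libraries, 14.9% in 3 or 4 and 11.1% in 5 or more. Other promoters showed 45.6%, 16.0%, 14.0% and 8.53% over the same classes. For Usp21, a ubiquitin-specific protease, all 13 fragments lay more than 1000 kb from the median of the rest, over 187829 kb of chromosome 1. That was not particular to Usp21. Every called fragment of Trim28, Usp34, Trim60, Usp11 and Fbxw21 also lay that far, the recurrent Trim28 contact among them. For a promoter with few or scattered fragments this measure can count all of them as far. Pairs of consecutive HindIII fragments were listed 61 times in 36 member promoters, or 7.11 per 100 listings, against 8.14 for other promoters. Of the member pairs 62.3% were scored together in at least 1 library, against 50.03% of other pairs, and Ube2d3 had 6 pairs, Ube2j1 5 and Rnf139 4.

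A share of 16.2% of member listings (139) fell on fragments listed with another promoter too, against 15.4% of other listings. These joined 64 members to other promoters in 150 pairs. For 148 pairs both names could be placed on GRCm38.p6, used here for gene order only, and all were on the same chromosome, with a median of 13.5 coding genes between them. In 11 pairs the genes were neighbours, for instance Usp2 with Thy1, Psma5 with Sypl2 and Trim44 with Fjx1. Rnf207 shared the most fragments with a single partner, 6 with Acot7.

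Group differences were tested with limma in a single fit of all 4429 promoters, each promoter entering as the average asinh(score) of its fragments, with adjusted p-values under 0.05 counted. No member promoter passed in any of the 6 comparisons. The background was equally thin: 0% of all promoters passed for Early against Basal, 0.0903% for Late against Early, 0.0677% for Reactivated against Late, 0.0677% for Late against Basal, 0.0226% for Reactivated against Basal and 0% for Reactivated against Early. In the fit of single listings, 0 of 858 member listings and 0% of all 36353 passed in each comparison. At an unadjusted p under 0.05, member promoters numbered 3 for Early against Basal (3.16%, all promoters 5.83%), 7 for Late against Early (7.37%, 6.95%), 16 for Reactivated against Late (16.8%, 13.8%), 9 for Late against Basal (9.47%, 8.20%), 8 for Reactivated against Basal (8.42%, 11.2%) and 6 for Reactivated against Early (6.32%, 11.3%). At that level member listings numbered 79, 117, 228, 110, 171 and 162 in the same order of comparisons, which are 9.21%, 13.6%, 26.6%, 12.8%, 19.9% and 18.9% of members beside 10.6%, 15.1%, 26.2%, 12.9%, 20.3% and 21.3% of all listings. The fit with each library set as its mean, and the fit with the set as a random block, also gave 0 members. The counts depend on single libraries. Without both Reactivated 1 and 2, so that a pair sharing most of its fragments stands for the group, 42 member promoters passed for Reactivated against Late, 43 against Basal and 43 against Early, which are 44.2%, 45.3% and 45.3% of members beside 43.8%, 45.6% and 44.9% of all promoters. Without Basal 3, 30 member listings (3.68%, all listings 4.08%) passed for Early against Basal and 33 (4.04%, all 4.34%) for Late against Basal, all of them lower than in Basal. The comparisons share libraries and are given side by side, without overlaps between them. In each, the promoters with the 3 largest gains and the 3 largest losses in mean calls are named below. Where their calls do not overlap between groups, this follows in part from that choice and is no separate support.

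For Early against Basal the median difference over members was 0, as it was over all promoters. Psmb10, a catalytic beta subunit of the immunoproteasome, had 1, 0, 1 and 0 called interactions in the 4 Early libraries and 3 in each of the 3 Basal libraries. These groups do not overlap, and the promoter difference was -1.21 ± 0.75 (SE; adjusted p = 1 by limma). A Psmb10 fragment at chr8:86526525-86543985 was scored in Basal only, at 171, 106 and 22. Ube2w, which places ubiquitin on the amino terminus of proteins, had 2, 0, 0 and 0 calls in Early and 3, 3 and 4 in Basal (difference -1.33 ± 0.62, adjusted p = 0.828 by limma), and Fbxo43, an inhibitor of the anaphase-promoting complex, had 1, 1, 1 and 2 in Early and 4, 4 and 3 in Basal (difference -1.50 ± 0.78, adjusted p = 0.935). On the other side Fbxw17 had 3, 1, 1 and 4 calls in Early and 0, 0 and 1 in Basal, Psmd7 6, 1, 2 and 4 in Early and 1, 1 and 2 in Basal, and Trim2, a neuronal ligase for neurofilament light chain, 4, 1, 3 and 3 in Early and 1, 2 and 0 in Basal. The groups overlap for all 3, and each had an adjusted p of 1 by limma. With only listings scored in 3 or more libraries the Psmd7 difference of 0.56 ± 0.69 turned to -0.21.

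Among single fragments, that of Trim2 at chr3:84106365-84108348 had scores of 0, 1107, 823 and 423 in Early and none in Basal. Its difference of 5.46 ± 2.79 did not pass (adjusted p = 0.469 by limma), and Late and Reactivated libraries scored it too, at 0, 0, 782 and 516 and at 0, 0, 570 and 718. A fragment listed with Usp33, a ubiquitin-specific protease, and with Cgn and Zfp687 as well, at chr3:94448900-94452498, had no score in any Early library and 1123, 696 and 8 in Basal (difference -5.91 ± 1.79, adjusted p = 0.185 by limma). No library of Late or Reactivated scored it.

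For Late against Early the median difference was 0.25 over members and 0.06 over all promoters. The largest gain in calls was that of Rnf20, the ligase that ubiquitylates a core histone during transcription. It had 6 called interactions in each of the 4 Late libraries and 1, 0, 0 and 0 in the Early libraries, against 1, 2 and 0 in Basal and 0, 0, 5 and 5 in Reactivated. The promoter difference was 1.15 ± 0.43 for Late against Early (adjusted p = 0.493 by limma). The equal counts in Late do not rest on the same contacts: 15 Rnf20 fragments were called in Late, 9 in Late 1 and 2 and 6 in Late 3 and 4, and 0 in both sets. The 9 had scores of 17 to 71, and 5 of them lay more than 1000 kb from the median of the other Rnf20 fragments. The 6 had scores of 7 to 477, and none lay that far from the median. Of the 20 Rnf20 fragments 4 were listed also with another promoter (Nr4a3, Col15a1, Mrpl50 or Zyg11b).

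Cul3 had 1, 3, 9 and 8 calls in Late and 1, 1, 2 and 2 in Early, and Ube2j1 had 2, 2, 8 and 8 in Late and 2, 0, 2 and 2 in Early. Both gains came from Late 3 and 4, and Late 1 and 2 lay in or near the Early range. The promoter differences were 0.96 ± 0.59 for Cul3 and 0.53 ± 0.68 for Ube2j1, with adjusted p-values of 0.855 and 1 by limma. Psma5, an alpha subunit of the proteasome barrel, had no call in the 4 Late libraries and 2, 0, 3 and 4 in Early. Rnf10, a ligase that marks ribosomal proteins, had 1, 0, 0 and 1 in Late and 3, 1, 2 and 4 in Early, and Trim2 had 0, 1, 1 and 1 in Late and 4, 1, 3 and 3 in Early. Adjusted p-values were 0.855 for Psma5, 0.86 for Rnf10 and 0.89 for Trim2 by limma.

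**Figure D4:**
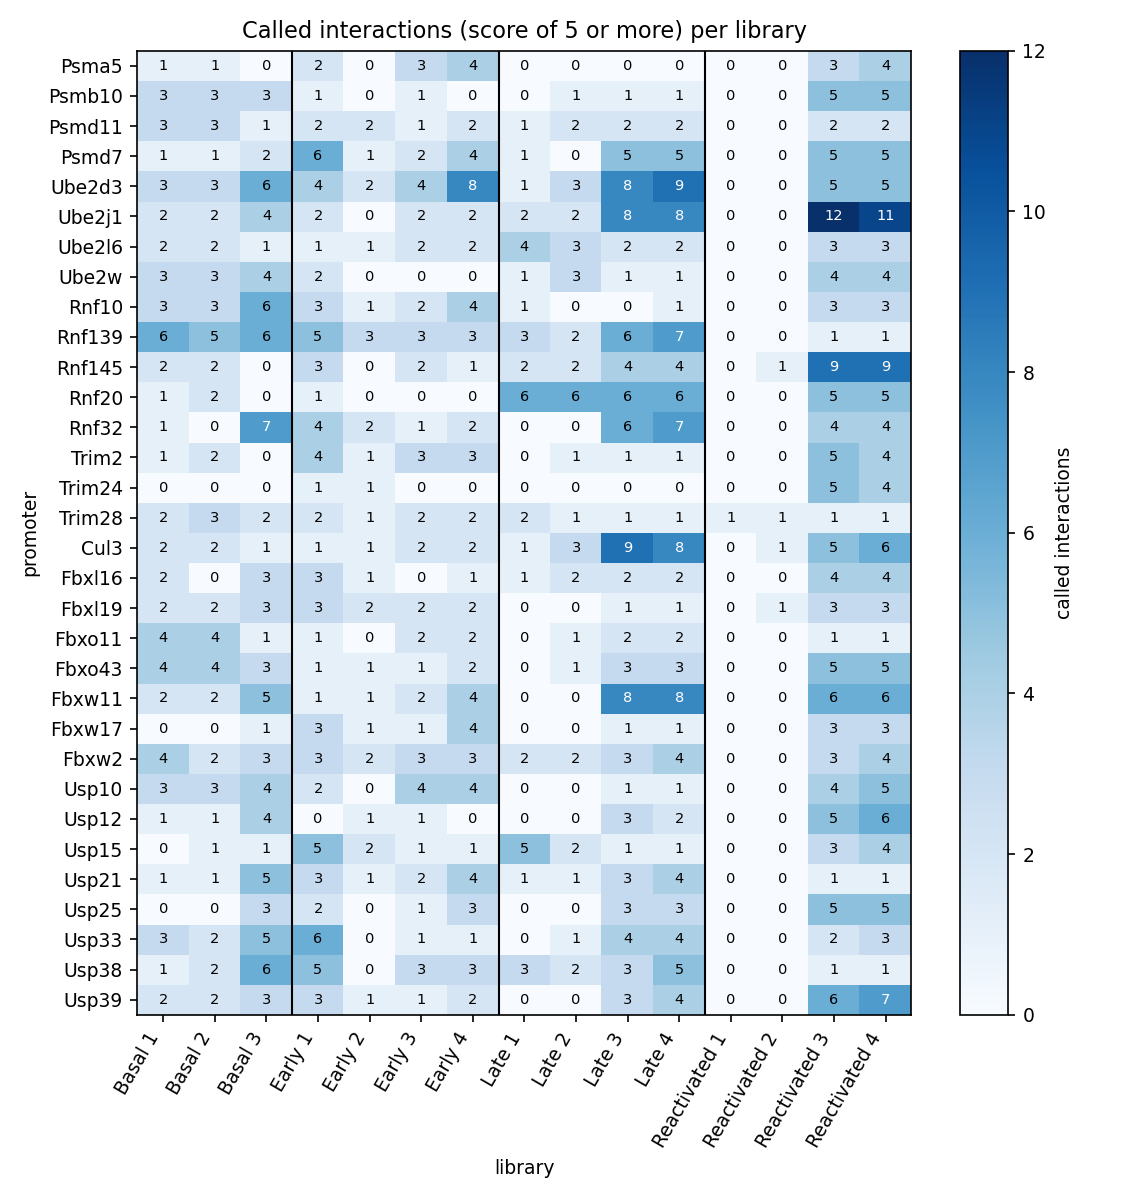
Called interactions per library (colour and number) for the 32 member promoters named by rule, ordered by family, with lines between the 4 groups. Rnf20 shows 6 calls in every Late library, Ube2j1 reaches 12 in Reactivated 3, and the columns of Reactivated 1 and 2 are nearly all 0.

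The smallest adjusted p of any member belonged to Trim26, a ligase of antiviral signalling, which the naming rule did not select and which was picked after its values were seen. All 3 of its fragments were scored in Late alone, at 14 and 17 in Late 1 and 2 for chr17:36445934-36448582, 1912 and 1580 in Late 3 and 4 for chr17:37079474-37088895, a fragment listed also with Mog and the member Rnf39, so that its score cannot be assigned to Trim26 alone, and 315 and 300 in Late 3 and 4 for chr17:37220272-37222401. The difference was 3.00 ± 0.72 for Late against Early (adjusted p = 0.169 by limma) and 3.00 ± 0.77 for Late against Basal (adjusted p = 0.109), and Reactivated against Late gave the same size with the opposite sign (adjusted p = 0.161). With scores scaled by the library median it passed for Late against Early and for Reactivated against Late, and without Late 1 or without Late 2 it passed in these comparisons and for Late against Basal.

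The largest single-fragment gain in Late was that of a Usp38 fragment, chr8:83204265-83206652, with 19, 17, 2452 and 1668 in Late and no score in Early (difference 5.94 ± 2.01, adjusted p = 0.276 by limma). Basal 3 scored it at 40 and no Reactivated library did. Both Late sets scored this Usp38 contact, at levels that differ widely between them. A Usp33 fragment at chr3:151939870-151949829 had no score in Late and 343, 0, 49 and 30 in Early (difference -3.80 ± 1.53, adjusted p = 0.276 by limma).

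For Reactivated against Late the median difference was 0.01 over members and 0.18 over all promoters. Reactivated values rest almost wholly on libraries 3 and 4, which had 243 and 256 member calls, beside 1 and 5 in Reactivated 1 and 2. Trim24, a chromatin-binding ligase of p53, had 0, 0, 5 and 4 calls in Reactivated and none in the 4 Late libraries (difference 1.27 ± 0.53, adjusted p = 0.296 by limma). Psmb10 had 0, 0, 5 and 5 in Reactivated and 0, 1, 1 and 1 in Late, and Usp10, a ubiquitin-specific protease, had 0, 0, 4 and 5 in Reactivated and 0, 0, 1 and 1 in Late. Rnf139 had 0, 0, 1 and 1 in Reactivated and 3, 2, 6 and 7 in Late, with no overlap between the groups (difference -0.90 ± 0.51, adjusted p = 0.451 by limma). Unlike the gains, its low count was seen also in Reactivated 3 and 4, the libraries with the most listings of all. Usp38 had 0, 0, 1 and 1 calls in Reactivated and 3, 2, 3 and 5 in Late, and Rnf20 had 0, 0, 5 and 5 in Reactivated and 6 in each Late library. The Rnf20 difference was -0.61 ± 0.43 (adjusted p = 0.552 by limma) and turned to 0.26 with only listings scored in 3 or more libraries. The highest member score of all was a Usp38 fragment at chr8:83522142-83531038, with 0, 0, 4742 and 5191 in Reactivated and no score in Late (difference 4.60 ± 2.04, adjusted p = 0.141 by limma).

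**Figure D5:**
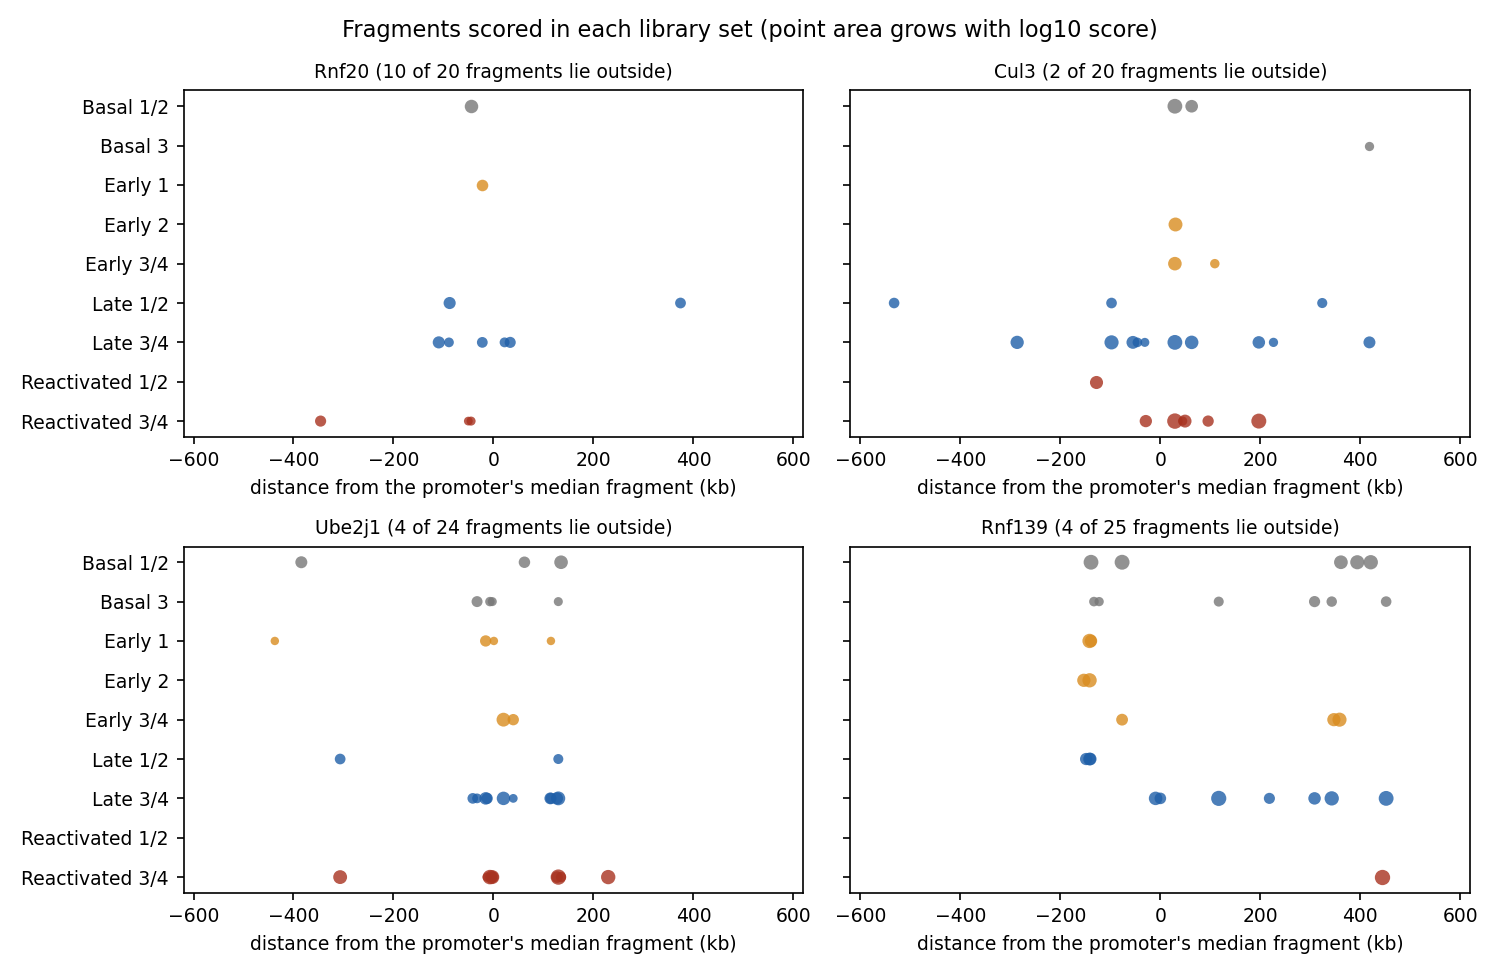
Position of the fragments of Rnf20, Cul3, Ube2j1 and Rnf139 relative to the promoter's median fragment (kb) in each of the 9 library sets, with point area growing with log10 of the highest score in the set. The panels leave out 10 of 20, 2 of 20, 4 of 24 and 4 of 25 fragments beyond 600 kb, and Rnf139 keeps 1 point in Reactivated 3 and 4.

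Rnf139 had the highest mean number of calls in Basal among the named members, 5.67 per library, and the fragments behind its calls differed between groups. It had 6, 5 and 6 calls in Basal, 5, 3, 3 and 3 in Early, 3, 2, 6 and 7 in Late and 0, 0, 1 and 1 in Reactivated. Most of its fragments lay on chromosome 15 between 58273577 and 58881233. In Early 1, Early 2, Late 1 and Late 2 the fragment chr15:58286593-58288201 was scored at 658, 627, 92 and 134, and the next but one, chr15:58289482-58291063, at 1092 and 684 in Basal 1 and 2 and 88 in Early 1. In Late 3 and 4 the high scores were 1625 and 1026 at chr15:58545576-58545994 and 1145 and 896 at chr15:58880123-58881233, both also scored in Basal 3, at 12 and 19. The Reactivated contact, chr15:58870118-58873023, had 1599 and 1941 and was scored in no other group.

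For Late against Basal, where the median difference was 0.17 over members and 0.15 over all promoters, Rnf20 (0.90 ± 0.47, adjusted p = 0.664 by limma), Cul3 (0.89 ± 0.63, adjusted p = 0.842) and Ube2j1 (0.47 ± 0.73, adjusted p = 0.991) again had the largest gains in calls. Rnf20 had 6 calls in every Late library against 1, 2 and 0 in Basal, with no overlap, but with only listings scored in 3 or more libraries its difference turned to -0.23. Rnf10 had 1, 0, 0 and 1 calls in Late and 3, 3 and 6 in Basal, and Usp10 had 0, 0, 1 and 1 in Late and 3, 3 and 4 in Basal, both without overlap (adjusted p = 0.538 and 0.812 by limma). Psmb10, with 0, 1, 1 and 1 in Late and 3 in each Basal library, did not overlap either (adjusted p = 0.823 by limma). A Fbxo43 fragment, shared with Snx31, at chr15:35844401-35848558 had no score in Late and 1065, 625 and 24 in Basal (difference -6.22 ± 2.41, adjusted p = 0.276 by limma). A Usp15 fragment at chr10:122619490-122621094 had 22, 0, 1329 and 877 in Late and none in Basal (difference 4.78 ± 2.03, adjusted p = 0.343 by limma).

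For Reactivated against Basal the medians were 0.28 over members and 0.31 over all promoters. Rnf145 had 0, 1, 9 and 9 calls in Reactivated and 2, 2 and 0 in Basal, Ube2j1 had 0, 0, 12 and 11 in Reactivated and 2, 2 and 4 in Basal, and Trim24 had 0, 0, 5 and 4 in Reactivated and none in Basal. In each case the 2 sparse Reactivated libraries lay at or below the Basal range. Their adjusted p-values were 0.557, 0.599 and 0.431 by limma. Rnf139 (adjusted p = 0.442) and Rnf10 (adjusted p = 0.51) had fewer calls in Reactivated than in Basal, as did Fbxo11, an F-box adaptor, with 0, 0, 1 and 1 in Reactivated and 4, 4 and 1 in Basal (difference -2.36 ± 0.92, adjusted p = 0.423 by limma). A Fbxw2 fragment at chr2:34683879-34685518 had no score in Reactivated and 2343, 1309 and 35 in Basal (difference -6.86 ± 2.48, adjusted p = 0.193 by limma).

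For Reactivated against Early the medians were 0.25 over members and 0.26 over all promoters. Ube2j1 had 0, 0, 12 and 11 calls in Reactivated and 2, 0, 2 and 2 in Early. Usp12 had 0, 0, 5 and 6 in Reactivated and 0, 1, 1 and 0 in Early. Usp21 had 0, 0, 1 and 1 in Reactivated and 3, 1, 2 and 4 in Early, and Usp38 had 0, 0, 1 and 1 in Reactivated and 5, 0, 3 and 3 in Early. Adjusted p-values were 0.531 for Ube2j1, 0.472 for Usp12, 0.531 for Usp21 and 0.702 for Usp38 by limma. With only listings scored in 3 or more libraries the differences of Usp12 (1.13 ± 0.58) and Usp38 (-0.54 ± 0.50) turned to -0.082 and 0.082. A fragment of Usp39, a splicing factor of the protease family, at chr6:72271099-72276333 had 0, 0, 3351 and 4054 in Reactivated and no score in any library of Early, Late or Basal (difference from Early 4.45 ± 1.66, adjusted p = 0.161 by limma). The Rnf32 fragment at chr5:29519435-29521320 had 0, 0, 276 and 0 in Reactivated and 337, 265, 716 and 281 in Early (difference -5.02 ± 2.64, adjusted p = 0.254 by limma). Early was the only group with this Rnf32 contact in all of its libraries.

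The proteasome promoters as a family had 1.46 called contacts per promoter in Basal, 2.69 in both Early and Late, and 2.54 in Reactivated. Of their 94 called listings 76.6% were called in 1 group, against 66.1% over all members and 68.0% for other promoters. Of their 101 listings 27.7% recurred in 2 or more sets, against 35.7% over all members and 34.4% for other promoters. These family shares rest on 13 promoters and were not tested. Individual subunits differed in where their calls fell. Psme4, a proteasome activator that caps the barrel, had 1, 0, 4 and 4 calls in Late and 0, 0, 1 and 1 in Reactivated, with none in Early or Basal. Psmd4, a ubiquitin receptor of the regulatory particle, had 0, 0, 1 and 1 in Late and 0, 0, 4 and 4 in Reactivated, and none in Early or Basal. Psma3 had 2, 4, 1 and 1 in Late and none in the 11 libraries of the other groups, though Early 1 and 2 scored it below 5. Of its 6 fragments called in Late, 5 were called in Late 1 and 2, at scores of 7 to 14. The remaining 1 was called in Late 3 and 4, at 212 to 352, and 0 were called in both sets. Psmd11 had calls in every library but Reactivated 1 and 2. None of these promoters passed the limma fit, and Psme4, Psmd4 and Psma3 were picked after their values were seen.

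Called contacts per Rnf promoter numbered 3.67 for Basal, 3.62 for Early, 4.52 for Late and 2.62 for Reactivated. Trim promoters had 1.53, 2.41, 2.82 and 2.12 in the same order. Conjugating enzymes had 3.20, 3.80, 5.10 and 4.40, and proteases 3.05, 3.86, 3.55 and 2.59. Rnf promoters and proteases each had their fewest calls in Reactivated, whereas conjugating enzymes had more there than in Early or Basal. The excess over Early depended on Ube2j1, with 13 of the 44 fragments called in Reactivated and 4 of the 38 called in Early. Ube2d3 went the other way, with 5 in Reactivated and 14 in Early. The F-box adaptor Fbxw11, which recognises phosphorylated targets for a cullin ligase, had 18 fragments and 8 calls in each of Late 3 and 4 but 0 in Late 1 and 2. Fbxw2 had a call in every library but Reactivated 1 and 2. Fbxl19, an adaptor that binds CpG islands, had 2, 2 and 3 calls in Basal, 3, 2, 2 and 2 in Early, 0, 0, 1 and 1 in Late and 0, 1, 3 and 3 in Reactivated. Usp25 was the protease with the most recurrent fragment, and its calls were 0, 0 and 3 in Basal, 2, 0, 1 and 3 in Early, 0, 0, 3 and 3 in Late and 0, 0, 5 and 5 in Reactivated. Every Late value of Fbxl19 lay below every Early and Basal value, but these are small counts and its differences did not pass. They were -0.79 ± 0.57 for Late against Early (adjusted p = 0.885 by limma) and -0.83 ± 0.61 for Late against Basal (adjusted p = 0.852). How many of all promoters separate in this way was not counted. The values of Usp25 overlap in all groups. Trim28 was the only named member with a call in all 15 libraries.

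Of 223 further genes of ubiquitin conjugation and the proteasome outside the naming rule, 67 were among the captured promoters. They had a median of 6 fragments, with 31.5% of 508 listings in 2 or more sets and 71.4% of called listings in 1 group. By limma, 0 were higher and 0 lower in each of the 6 comparisons. Among them, the promoter listed as Rps27a had 1, 1 and 1 calls in Basal, 1, 1, 2 and 2 in Early, 4, 3, 3 and 3 in Late and 0, 0, 7 and 7 in Reactivated. That name belongs to a gene that encodes ubiquitin fused to a ribosomal protein. The fragments listed under it are placed on chromosome 9, and whether the captured promoter is that of this gene was not checked. Rps27a was picked after its values were seen.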

How the data were processed

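Promoter-capture Hi-C was made from sorted hippocampal neuronal nuclei in 15 libraries (Basal 3, Early 4, Late 4, Reactivated 4), grouped by title. The deposited table gives the authors' interaction score per promoter, HindIII fragment and library, per the file headers, on mm9, per the submitters' processing notes. The caller, filters and normalization behind the score were not given in the sources used here. Scores are whole numbers, their sums differ between libraries from 3114 to 9590409, and read depth is unknown, so a score difference can carry a depth difference and no counting interval is given. Each score entered as asinh(score), 0 where none is listed, without a filter on low values. Columns not matched to a sample numbered 0.

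Members were read out of limma 3.58.1 fits (R 4.3.3, statmod 1.5.0, robust empirical Bayes, variance trend) of all 4429 promoters and all 36353 listings, with 4 groups in a single model and Benjamini-Hochberg adjustment over the whole table. Differences are in asinh(score) with their SE. The fit was tested on simulated data with known changes. Chosen listings or promoters scored high in every library of a group and nowhere in the group compared with it. Most contacts here were scored in few libraries, so that test does not show which changes the fit could miss. Members against other promoters are described, not tested. Counts, figures and promoter motifs were made in Python 3.11.15 (matplotlib 3.10.9, numpy 2.4.6, pandas 2.3.3, scipy 1.17.1). A library set joins libraries of a group with an overlap of 40% or more of the smaller library's fragments.

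Members, lists, tests and naming rule were chosen with earlier results of these data known. Named were, per family, the member with the most fragments and the one with the most recurrent fragment, per comparison the 3 largest gains and the 3 largest losses in mean calls and the fragment with the largest difference each way, and Ube3a, Trim3, Trim9, Usp14, Fbxw7, Cul3 and Psmc5 where listed, of which Cul3 was found. Other names were picked after their values were seen. Alternatives were other scalings and scales, thresholds, fragment filters, library sets, the replicate number as a block, and leaving out libraries. Fragment sequences are not printed, since no mm9 genome was used here.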

Additional observations from a re-analysis of the deposited data

Results flagged for a closer look

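Of 108 groups of values checked, 17 (15.7%) held a library far from the others of its group. The rule flags about 1 in 20 groups of independent, continuous values. That rate does not hold for small, tied counts or for paired libraries that share fragments, so no excess can be read from these flags. In 16 cases the values were small counts of called interactions, in 15 of them with the other 3 libraries tied. In Early these were Fbxl19 with 3 in Early 1 against 2 in each other library, Fbxo43 with 2 in Early 4 against 1, Fbxw2 with 2 in Early 2 against 3, Psmd11 with 1 in Early 3 against 2, Rnf139 with 5 in Early 1 against 3, Rnf20 with 1 in Early 1 against 0, Trim28 with 1 in Early 2 against 2, Ube2j1 with 0 in Early 2 against 2, Ube2w with 2 in Early 1 against 0, and Usp33 with 6 in Early 1 against 0, 1 and 1. In Late these were Fbxl16 with 1 in Late 1 against 2, Psmb10 with 0 in Late 1 against 1, Psmd11 with 1 in Late 1 against 2, Trim2 with 0 in Late 1 against 1, Trim28 with 2 in Late 1 against 1, and Ube2w with 3 in Late 2 against 1. Member listings made up 5.71% of the listings in Reactivated 1, which are 2 of 35, against 1.80% to 2.25% in Reactivated 2 to 4.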

How the results depend on the processing

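Counts of member promoters past the threshold stayed at 0 with most settings. The promoter that passed elsewhere was Trim26: 1 with scores scaled by the library median (Late against Early, Reactivated against Late), and 1 with quantile normalization or with only fragments of 1 promoter (these comparisons and Late against Basal). That 1 is 1.05% of members, beside 0.181% and 0.203% of all promoters with scaled scores. For Late against Early, Reactivated against Late and Late against Basal, all promoters gave 0.474%, 0.564% and 0.768% with quantile normalization. With fragments of 1 promoter they gave 0.232%, 0.255% and 0.348%. Without Reactivated 1 and 2, which leaves a pair sharing 95.4% of member fragments to stand for the group, 42 member promoters passed for Reactivated against Late, 43 against Basal and 43 against Early, 44.2%, 45.3% and 45.3% of members beside 43.8%, 45.6% and 44.9% of all promoters. Member listings then numbered 202, 196 and 200 (23.6%, 22.9% and 23.3%, beside 25.3%, 25.1% and 25.3% of all). For Early and for Late against Basal 5 passed each (0.583%, beside 0.539% and 0.653% of all). Without the variance trend 3, 4 and 4 listings passed for Early, Late and Reactivated against Basal (0.350%, 0.466% and 0.466%, beside 0.391%, 0.553% and 0.402% of all). Leaving out each library in turn gave 0 to 1 promoters for Early, Late and Reactivated against Basal (Psma4, without Basal 3). It gave 0 to 1 also for Late against Early (Trim26, without Late 1 or Late 2, also for Late against Basal). For Reactivated against Late and against Early it gave 0 to 3 (Trim68 and Ube2z with Trim26 or Psmd4, without Reactivated 1 or 2). The 1 without Basal 3 is 1.05% of members, beside 1.49%, 1.54% and 1.38% of all promoters for Early, Late and Reactivated against Basal. Without Late 1 the 1 is 1.06%, beside 0.227% for Late against Early and 0.295% for Late against Basal. Without Late 2 it is 1.05%, beside 0.250% in both. Without Reactivated 1 or 2 the 3 are 3.16%, beside 3.50% or 3.32% against Late and 2.82% or 3.05% against Early. Listings ranged from 0 to 30 for Early and 0 to 33 for Late against Basal (without Basal 3, 3.68% and 4.04%, beside 4.08% and 4.34% of all). They ranged from 0 to 89 for Reactivated against Basal (without Reactivated 1 or 2), with 39 (4.78%, beside 4.58% of all) without Basal 3. Ranges were 0 to 110 for Reactivated against Early and 0 to 112 against Late (without Reactivated 1 or 2). The highest of these 3 Reactivated ranges are 10.4%, 12.8% and 13.1% of member listings beside 11.5%, 12.9% and 13.5% of all. Late against Early gave 0 throughout. The cause was not tested. Same-numbered libraries correlated at -0.047 to 0.066 in their deviations, beside -0.063 to 0.063 for libraries of unlike number, so no pairing by number was seen. With 84.7% of values lacking a score, this check may miss a pairing. The fit with the replicate block gave 0 member promoters and 0 listings. With only listings scored in 3 or more libraries, the direction turned for Psmd7 (Early against Basal, -0.21), Rnf20 (Reactivated against Late, 0.26; Late against Basal, -0.23), Usp12 (-0.082) and Usp38 (0.082; both Reactivated against Early). Median fragments were 6 in members and 5 in other promoters with fragments of 1 promoter only, and 3 and 2 with listings in 3 or more libraries. Shares in 2 or more sets were 31.6% and 31.2% at a score of 10, and 27.3% and 26.0% with fragments of 1 promoter. Single-group shares were 74.2% and 76.2% with such fragments, and in other promoters 70.2% at a score of 10 and 67.1% at any score. Leaving out each library moved the share in 2 or more sets over 28.4% to 36.1% in members and 29.3% to 34.4% in other promoters, and the single-group share over 65.8% to 73.4% and 68.0% to 73.3%, furthest without Basal 3. Depth is unknown, and the thin Reactivated 1 and 2 limit every Reactivated comparison.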
